A study of Mus musculus with 8 samples.

Results

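The miR-125 family was followed through the RISC-bound small RNAs (R-sRNAs) of mouse brain. Its members were the 5 names mmu-miR-125a-5p, mmu-miR-125b-5p, mmu-miR-125a-3p, mmu-miR-125b-1-3p and mmu-miR-125b-2-3p (the prefix is mostly left out here), found as exact matches in the miRNA column of the deposited table, out of 895 miRNA names listed there. They covered 536 of the 47204 distinct read sequences. Of these, 255 carried the name miR-125b-5p, 151 miR-125a-5p, 73 miR-125b-2-3p, 34 miR-125b-1-3p and 23 miR-125a-3p.

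The libraries came from cortex and hippocampus of 8 mice that all carried the 5XFAD transgene, which drives amyloid deposition and serves as a model of Alzheimer's disease. In 4 mice (het) 1 copy of the autophagy gene Rubicon was intact (5XFADtg Rubicon+/-), and in the other 4 (ko) both were lost (5XFADtg Rubicon-/-). The study's methods describe females of 6 or 8 months, from 5XFAD males crossed to C57BL/6J/SJL hybrids, and its text on this comparison speaks of age-matched mice of 6 months. That text counts fewer het mice than the 4 labelled here, whereas the methods give 4 of each genotype. The labels do not tie an age to a mouse. Mice with 2 intact copies of Rubicon and mice without the transgene were not analysed here, so the contrast is of no copy against 1 copy, on a 5XFAD background throughout. Argonaute complexes were captured with a GW182 peptide before sequencing, so every value describes guide strands held by Argonaute, not the whole pool of the miRNA. The tissue is a mixture of cell types, in which fewer cells of a type and less RNA per cell cannot be told apart.

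Levels are in CPM, the number of reads out of every 1000000 that a library yielded. Depth ran from 509839 to 19878054 reads per library, and 2 ko libraries, replicates 1 and 2, were above 5000000. A count of 3 reads, taken as the floor, was worth 5.79 CPM in the shallowest library and 0.151 CPM in the deepest. Small RNA reads do not report on Rubicon itself, so the genotype labels could not be checked against it. Brain miRNAs (6 names) were plentiful throughout, their sum running from 160021 to 202802 CPM in het and from 155994 to 256537 CPM in ko libraries. Summed epithelial miRNAs (7 names) were 2249 to 8555 CPM in het against 226 to 1794 CPM in ko. The summed sensory cluster miR-183, miR-96 and miR-182 was 390 to 1338 CPM in het against 26.5 to 129 CPM in ko. Both sums separated the genotypes without overlap, and their part in the values given here was not tested. Of the epithelial names, miR-200a-3p, miR-200b-3p and miR-429-3p also separated them singly. Values of miR-200c-3p, miR-141-3p, miR-205-5p and miR-203-3p overlapped between genotypes. Summed blood and immune miRNAs (5 names) were 4120 to 6541 CPM in het and 3333 to 5176 CPM in ko, and muscle and pancreas miRNAs (3 names) 129 to 289 CPM and 122 to 260 CPM.

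miR-125 is the vertebrate counterpart of lin-4, the founding miRNA of the nematode developmental timing pathway. In mammals its genes sit beside members of the let-7 and miR-99/100 families, and miR-125b in particular is abundant in neurons and glia, where it has been linked to neuronal differentiation and to translation at synapses. The 5p arm is the usual guide strand. The 3p arm is the opposite strand of the same hairpin and is mostly discarded.

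The mature sequences show what the family shares and where it parts. They are the RefSeq entries on GRCm38.p6, with bases 2 to 8 (the seed, which selects target mRNAs) in capitals. miR-351-5p, the only other name in the table that carried this 6mer seed, and miR-670-5p, which holds the same 7 bases 1 position further in, stand below them.
miR-125a-5p: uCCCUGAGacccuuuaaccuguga
miR-125b-5p: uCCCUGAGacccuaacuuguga
miR-125a-3p: aCAGGUGAgguucuugggagcc
miR-125b-1-3p: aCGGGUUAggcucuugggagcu
miR-125b-2-3p: aCAAGUCAgguucuugggaccu
miR-351-5p: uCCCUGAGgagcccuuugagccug
miR-670-5p: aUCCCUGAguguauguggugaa

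The 5p arms begin with the same 13 bases and end with the same 5. They differ between these stretches, and miR-125a-5p is annotated with 24 nt and miR-125b-5p with 22 nt. The 3p arms are all 22 nt, and each has a 6mer seed of its own. Counted from the 5′ end, miR-125a-3p differs from miR-125b-1-3p by A3G, G7U, U11C and C22U, the first base being that of miR-125a-3p. Against miR-125b-2-3p it differs by G4A, G7C, G20C and C22U. miR-125b-1-3p differs from miR-125b-2-3p by G3A, G4A, U7C, C11U and G20C, of which 3 lie in bases 2 to 8.

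3 genes give rise to these guides. Mir125a lies at chr17:17830812-17830879 on the plus strand, inside the protein-coding gene Spaca6, and its hairpin overlaps an exon of a Spaca6 transcript (chr17:17830719-17830858). Mir125b-1 lies at chr9:41581926-41582002 on the plus strand, inside the noncoding genes 3110039I08Rik and Gm49317 and the sense-intronic Gm28119. Mir125b-2 lies at chr16:77646273-77646343 on the plus strand, inside the host gene Mir99ahg. These are GRCm38 positions, and the deposited table gives no coordinates. Mirlet7e and Mir99b start 0.451 kb and 0.623 kb from Mir125a, a tight cluster. The let-7 and miR-99/100 neighbours of both Mir125b genes lie farther away, 45.2 to 50.5 kb.

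Reads named miR-125b-5p cannot be divided between its 2 genes, since the mature sequence is the same. Of its CPM, 99.6% ± 0.108 (SD, n = 8 libraries) matched both hairpins equally well. Reads that fit better to Mir125b-1 made up 0.280% and those that fit better to Mir125b-2 0.160%. An added 3′ base that happens to match 1 hairpin counts as a better fit, so these shares do not rank the genes. The table files nearly all of them under the Mir125b-2 hairpin, 243 of 255 sequences, which is a naming choice and not a measure of that gene. In the same way, all 151 sequences of miR-125a-5p were filed under the overlapping Spaca6 transcript, whereas miR-125a-3p was filed under its own hairpin. The 3p arms are the reads that tell Mir125b-1 from Mir125b-2.

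mmu-miR-125b-5p was the leading member, at rank 10 by mean CPM among all miRNA names. Its level was 28868, 20200, 25350 and 19342 CPM in het replicates 1 to 4, and 25469, 14245, 9886 and 34448 CPM in ko replicates 1 to 4. The ko libraries held both the lowest and the highest value, so the genotypes overlapped fully. Over the 8 libraries the mean was 22226 ± 7948 CPM (SD).

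mmu-miR-125a-5p, its paralog from the let-7e cluster, ranked 28. It measured 7300, 10786, 9002 and 8548 CPM in het replicates 1 to 4, and 7778, 4077, 9738 and 12865 CPM in ko replicates 1 to 4. Again a ko library was lowest and another highest, and het lay between.

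The 3p arms were far scarcer. mmu-miR-125b-2-3p (rank 170) was the most abundant of them and the steadiest member, at 363, 398, 382 and 442 CPM in het replicates 1 to 4 and 352, 440, 380 and 322 CPM in ko replicates 1 to 4. Its values in the genotypes ran through each other. mmu-miR-125b-1-3p (rank 259) was at 137, 151, 113 and 133 CPM in het and 89.4, 129.7, 176 and 121 CPM in ko replicates 1 to 4. Here too the ko range enclosed the het range. mmu-miR-125a-3p (rank 297) was at 36.7, 83.9, 70.3 and 120.1 CPM in het and 69.7, 68.9, 120.7 and 92.1 CPM in ko replicates 1 to 4. The lowest of these values, in het replicate 1, stood for 19 reads. The most abundant single read of this arm, 29.1 CPM on average and 35.1% of the name, is 20 nt long and lacks the last 2 annotated bases.
miR-125a-3p, 20 nt: aCAGGTGAggttcttgggag

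**Figure D1:**
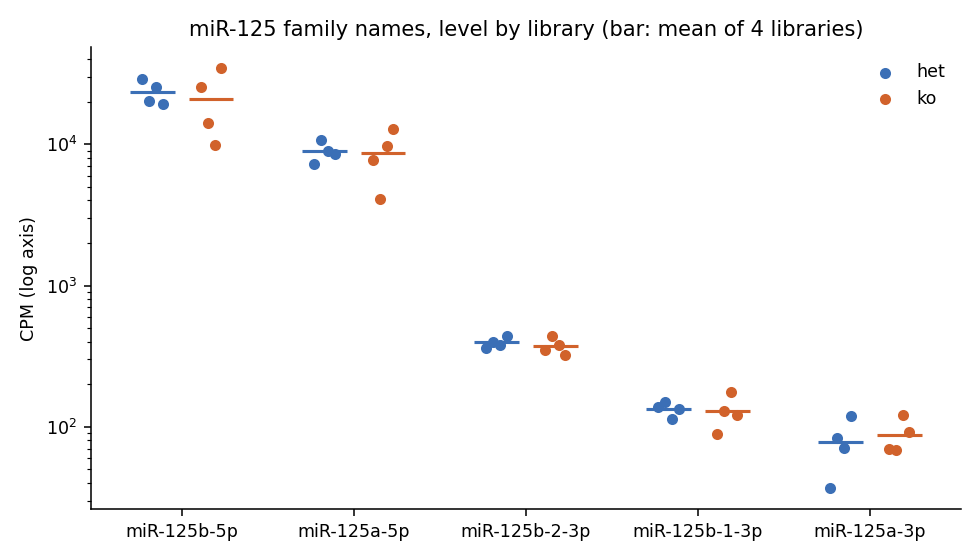
Level in CPM (log axis) of the 5 miR-125 names in each library, het (blue) and ko (orange), with a bar at the mean of 4 libraries. The 5p arms stand above the 3p arms in every library, and the genotypes overlap for all 5 names.

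Summed over its names, the family held 28585 to 36704 CPM in het libraries and 18960 to 47849 CPM in ko libraries. This was 3.18% ± 0.942 (SD, n = 8) of all CPM listed. miR-125b-5p contributed 69.3% ± 9.51 of it and miR-125a-5p 28.6% ± 9.07, while the 3p arms made up the rest, with miR-125b-2-3p the largest of them at 1.35% ± 0.536.

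The arms differed in how much they varied between libraries. The summed 5p arms were at 18322 CPM in ko replicate 2 and 19624 CPM in ko replicate 3 and reached 47313 CPM in ko replicate 4, a 2.58-fold span. The summed 3p arms spanned 1.36-fold over the same libraries, from 511 to 695 CPM. For single names, the coefficient of variation was 35.8% for miR-125b-5p, 29.6% for miR-125a-5p and 34.1% for miR-125a-3p, against 19.5% for miR-125b-1-3p and 10.7% for miR-125b-2-3p. The difference in spread was not tested. The libraries lowest for the 5p arms were thus not the lowest for the 3p arms, where ko replicate 1 was lowest and het replicate 4 highest.

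CPM counts whole reads whatever the length of the guide, so no length scaling is needed to set names side by side within a library. Reads are amplified copies without molecular identifiers, and how far capture, ligation or amplification favour some sequences was not tested. Within libraries, miR-125b-5p exceeded miR-125a-5p in 8 of 8, by a geometric mean of 2.49-fold (log2 ratio of CPM + 1 of 1.31 ± 0.63, SD). An exact sign-flip test over the 8 libraries gave a two-sided p = 0.00781, the smallest that 256 sign patterns allow, with an adjusted p of 0.00781 over the 5 comparisons made of this kind. The ratio was 3.95, 1.87, 2.82 and 2.26 in het replicates 1 to 4 and 3.27, 3.49, 1.02 and 2.68 in ko replicates 1 to 4. In ko replicate 3 the paralogs were thus nearly level, at 9886 and 9738 CPM.

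The 3p arms of the Mir125b genes, which tell these genes apart, were unequal as well. miR-125b-2-3p exceeded miR-125b-1-3p in 8 of 8 libraries by 2.95-fold on average (log2 ratio of the second to the first -1.56 ± 0.28, exact sign-flip p = 0.00781, adjusted 0.00781). The ratio of miR-125b-1-3p to miR-125b-2-3p stayed between 0.256, in ko replicate 1, and 0.465, in ko replicate 3.

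Strand choice was strongly to the 5p side for both paralogs, and more so for miR-125a. The log2 ratio of the 3p arm to the 5p arm was -6.72 ± 0.57 for miR-125a, that is 1 miR-125a-3p read for every 106 of miR-125a-5p. For miR-125b, with both 3p arms summed, it was -5.34 ± 0.71, or 1 for every 40.5. The difference, 1.39 ± 0.47 on the log2 scale, had the same sign in 8 of 8 libraries, from 0.84 to 2.17 (exact sign-flip p = 0.00781, adjusted 0.00781). Of the libraries, ko replicate 3 had the highest share of 3p arms for miR-125b, and it was also the one with the lowest miR-125b-5p.

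**Figure D2:**
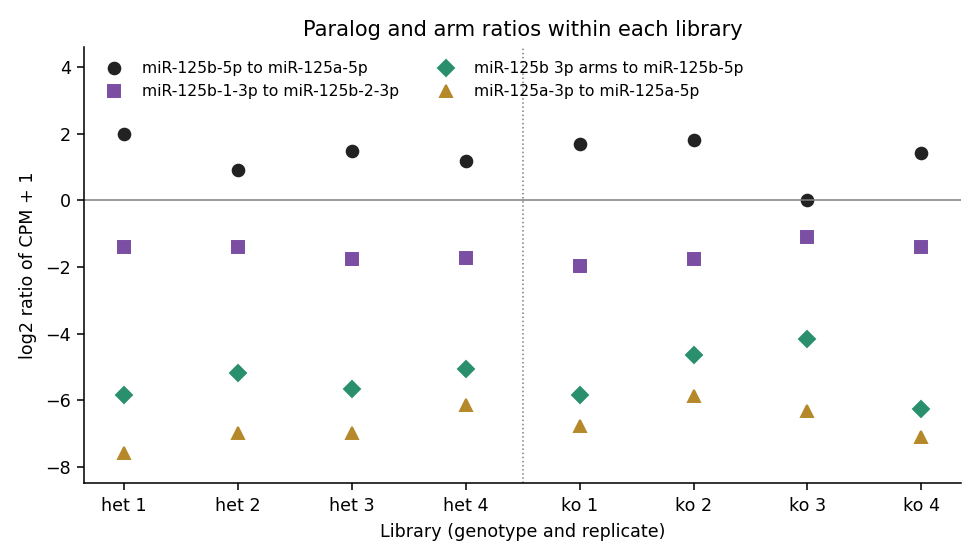
log2 ratio of CPM + 1 within each library for 4 pairs of miR-125 names or arms, with het libraries left and ko libraries right of the dotted line. The ratio of miR-125b-5p to miR-125a-5p lies above 0 in all 8 libraries and comes closest to it in ko replicate 3, at 0.02, and the 3p to 5p ratio is lower for miR-125a than for miR-125b in every library.

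Most guides in the family offered the same seed. The 6mer CCCUGA (positions 2 to 7) made up 94.2% ± 0.811 of the family's CPM. It ranked 8 among the 3427 6mer seeds of the table and stood for 3.05% of all listed CPM. Among reads with this seed, miR-125b-5p supplied 70.3%, miR-125a-5p 28.2%, reads without a miRNA name 1.34% and miR-351-5p 0.0942%. The miR-125 names were thus nearly the whole source of this seed in these brains. miR-351-5p was at 3.97 to 45.1 CPM over the 8 libraries, and miR-670-5p at 0 to 5.59 CPM.

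The deposited table scores each seed by how well 3 mouse cell lines survived, on average, an siRNA that carries it, so that low scores mark seeds toxic through Death Induced by Survival gene Elimination (DISE). CCCUGA scored 79.4, with 534 of the 3427 seeds above it. The 3p seeds scored lower, 63.8 for CAGGUG of miR-125a-3p, 53.4 for CGGGUU of miR-125b-1-3p and 37.3 for CAAGUC of miR-125b-2-3p. Only the last of these 4 main seeds lay under 40. Weighted by CPM, the family's mean score was 78.3 ± 0.275 against 56.4 ± 0.775 for all reads, and 1.94% ± 0.475 of the family's CPM scored under 40 against 12.7% ± 1.44 of all CPM. These scores belong to the seeds and were not measured in the mice.

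The reads of the 5p paralogs held by Argonaute differed in length. The 3 most abundant reads of each follow, in DNA letters with bases 2 to 8 in capitals, since they carry most of the name's level.
miR-125a-5p, 22 nt: tCCCTGAGaccctttaacctgt
miR-125a-5p, 23 nt: tCCCTGAGaccctttaacctgtg
miR-125a-5p, 24 nt: tCCCTGAGaccctttaacctgtga
miR-125b-5p, 22 nt: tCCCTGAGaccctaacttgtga
miR-125b-5p, 21 nt: tCCCTGAGaccctaacttgtg
miR-125b-5p, 20 nt: tCCCTGAGaccctaacttgt

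The most abundant read of miR-125a-5p was the 22-nt form, which lacks the last 2 annotated bases. It was at 3205, 4653, 4091 and 3314 CPM in het replicates 1 to 4 and 3727, 1520, 4195 and 7396 CPM in ko replicates 1 to 4, or 45.8% of the name's mean level. The annotated 24-nt sequence reached 1592 CPM on average, 18.2% of the name, and the 23-nt form 2098 CPM, 23.9%. miR-125b-5p instead was mostly its annotated 22-nt sequence, at 18373, 7839, 15048 and 9234 CPM in het replicates 1 to 4 and 15966, 8145, 5002 and 22278 CPM in ko replicates 1 to 4, or 57.3% of the name. Its 21-nt form held 20.7% and its 20-nt form 11.1%. Reads shorter than the annotation at the 3′ end were thus present for both paralogs and prevailed for miR-125a-5p.

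Reads of the annotated length and start were 20.7% ± 3.44 (SD, n = 8) of miR-125a-5p and 57.8% ± 9.21 of miR-125b-5p. Within libraries the difference was 37.2 ± 8.38 percentage points, positive in 8 of 8 and between 22.2 and 48.1 (exact sign-flip p = 0.00781, adjusted 0.00781). This comparison depends on the annotation, which is 24 nt for miR-125a-5p and 22 nt for miR-125b-5p. Both names were most often 22 nt long, in 46.0% and 58.1% of their CPM. The mean length was 22.6 ± 0.0591 nt for miR-125a-5p and 21.5 ± 0.125 nt for miR-125b-5p. Reads of miR-125b-5p varied in length between libraries of the same genotype. The 21-nt share of the name was 18.9%, 36.3%, 21.4% and 33.6% in het replicates 1 to 4 and 17.2%, 26.4%, 32.8% and 13.7% in ko replicates 1 to 4. The 22-nt share of the name ran in the opposite order at its extremes, lowest at 41.0% in het replicate 2 and highest at 67.4% in ko replicate 4.

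**Figure D3:**
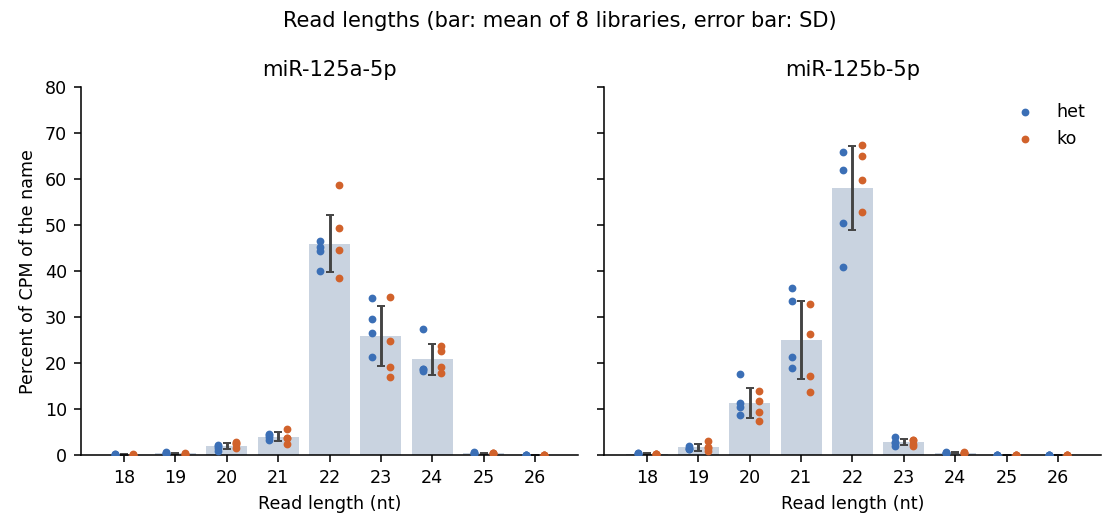
Share of each read length (nt) in the CPM of miR-125a-5p (left) and miR-125b-5p (right), with bars at the mean of 8 libraries, error bars of 1 SD and a point for each het (blue) and ko (orange) library. miR-125a-5p spreads over 22 to 24 nt, and miR-125b-5p peaks at 22 nt with a shoulder at 20 and 21 nt.

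Start sites were far more exact than ends for the 5p arms. miR-125a-5p began at its annotated base in 97.7% ± 0.295 of CPM and miR-125b-5p in 96.0% ± 0.258. A shifted start changes the seed, and with it the targets a guide can reach. Another 6mer seed was carried by 2.52% ± 0.268 of miR-125a-5p and 4.23% ± 0.259 of miR-125b-5p, a difference of 1.71 ± 0.30 percentage points that was positive in 8 of 8 libraries (exact sign-flip p = 0.00781, adjusted 0.00781). Besides shifted starts, this share counts reads with a mismatch inside the seed. In single libraries the miR-125a-5p share was at most 2.83% and the miR-125b-5p share at least 3.86%, so the paralogs did not overlap. The reads below, the most abundant of their kind, start 1 and 3 bases downstream, again with bases 2 to 8 of the read in capitals.
miR-125b-5p, start +1: cCCTGAGAccctaacttgtga
miR-125a-5p, start +1: cCCTGAGAccctttaacctgt
miR-125b-5p, start +3: cTGAGACCctaacttgtga
miR-125a-5p, start +3: cTGAGACCctttaacctgt

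The start +1, with the seed CCUGAG (viability score 75.4), accounted for 2.66% ± 0.194 of miR-125b-5p but 0.861% ± 0.205 of miR-125a-5p. Start +3, with the seed UGAGAC (score 39.0), made up 0.426% ± 0.116 and 0.485% ± 0.121, which overlapped. By their values the paralogs were set apart by the +1 form rather than by the +3 form. These start classes were chosen after their values were seen, and they were not tested.

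Among the 3p arms, miR-125b-2-3p had the least exact start. Another 6mer seed was carried by 16.1% ± 3.63 of its CPM, against 7.63% ± 3.8 of miR-125b-1-3p and 3.34% ± 3.09 of miR-125a-3p. Depth limits the scarcer arms, since 0 of 19 reads of miR-125a-3p in het replicate 1 had another seed, which allows a share of up to 15.8%. Most shifted reads of miR-125b-2-3p began upstream, 3 bases in 7.54% ± 2.93 of its CPM (seed UCACAA, score 72.4) and 2 bases in 6.60% ± 2.51 (seed CACAAG, score 71.3). The mature form has a score of 37.3, so on this scale the shifted forms carry less toxic seeds. The reads are the annotated start and the most abundant read of each shift.
miR-125b-2-3p, start 0: aCAAGTCAggttcttgggacct
miR-125b-2-3p, start -3: aTCACAAGtcaggttcttggga
miR-125b-2-3p, start -2: tCACAAGTcaggttcttgggac

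Starts downstream of the annotated base were rare on the Mir125b 3p arms. For miR-125b-2-3p they made up 1.6%, 1.38%, 0.509% and 1.45% of the name in het replicates 1 to 4 and 1.88%, 1.88%, 2.94% and 1.82% in ko replicates 1 to 4. Every ko value was above every het value, but the share stood for 3 to 17 reads in het libraries and for 6 to 165 in ko libraries. The 95% Wilson interval in het replicate 1 was 0.544% to 4.59%, which covers all the other values but that of het replicate 3. For miR-125b-1-3p the share was 0% in het replicates 1, 3 and 4 and 0.457% in het replicate 2, against 0.464% to 1.61% in ko libraries, and it rested on 0 or 1 read in het and 2 to 12 in ko. A count of 0 allowed a share of up to 4.23% in the shallowest library. Among 70 isoform shares computed, 7 of them 0 throughout, the genotypes did not overlap for these 2. Among 34 shares of single start positions they did not overlap for 3, start +1 of both these arms and start -4 of miR-125a-5p, which was at most 0.0457% of its name. These shares were picked out after their values were seen and not tested.

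The arms also differed in 3′ tails, read as the 1 to 4 bases left after the longest exact match to the hairpin. They are taken as untemplated bases added after cleavage, but a mismatch near the 3′ end also counts as a tail. Such tails were on 4.36% ± 0.499 of miR-125a-5p and 5.12% ± 0.661 of miR-125b-5p. On the 3p arms they were on 21.5% ± 3.94 of miR-125a-3p, 44.1% ± 7.18 of miR-125b-1-3p and 33.5% ± 5.22 of miR-125b-2-3p. The lowest share in any library was 15.8% for a 3p arm, in het replicate 1, where 3 of 19 reads of miR-125a-3p had a tail (95% Wilson interval 5.52% to 37.6%). The highest for a 5p arm was 6.03%. Tails of U alone were 32.4% ± 6.72 of miR-125b-1-3p, and its most abundant read, 22.9% of the name, ended in such a U in place of the templated C. For comparison, the most abundant tailed reads of the 5p arms added U to miR-125a-5p and A to miR-125b-5p. Every tail counted on a 3p arm began at or before the last base of its hairpin. No tail was thus only sequence beyond the hairpin's end. Tails were examined after the values were seen, and no test was made of them.
miR-125b-1-3p with a tail of U: aCGGGTTAggctcttgggagt
miR-125a-5p with a tail of U: tCCCTGAGaccctttaacctgtgt
miR-125b-5p with a tail of A: tCCCTGAGaccctaacttgtgaa

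**Figure D4:**
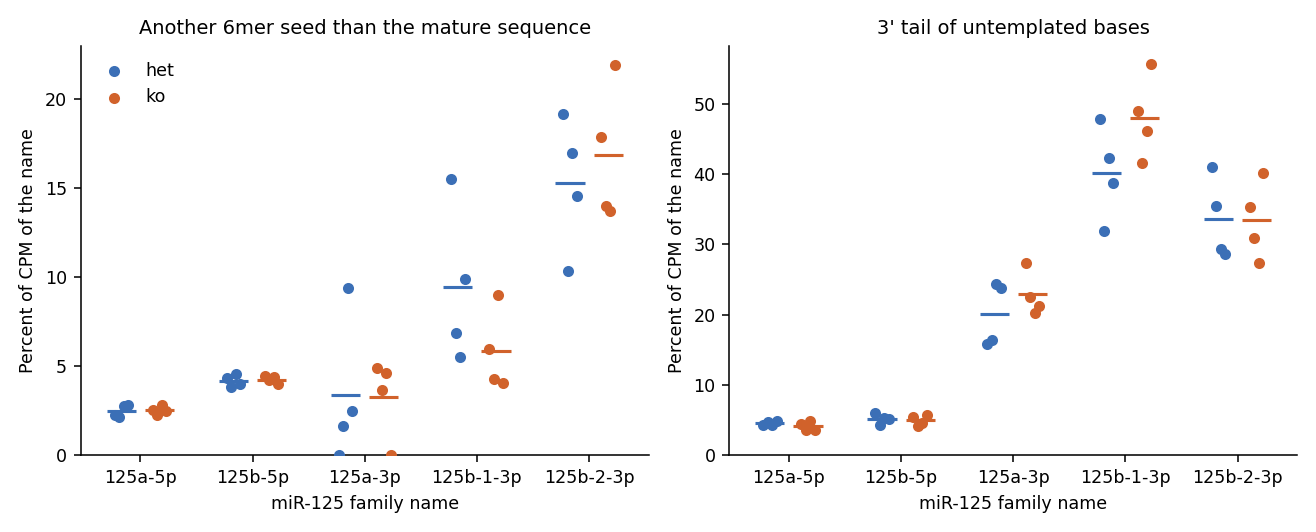
Percent of the CPM of each miR-125 name that carries another 6mer seed than the mature sequence (left) and a 3′ tail of untemplated bases (right), by library, het (blue) and ko (orange), with a bar at the mean of 4 libraries. miR-125b-2-3p has the most shifted seeds, and all 3p arms have more tails than both 5p arms.

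The genotype contrast asks what losing the last copy of Rubicon does to the RISC content of 5XFAD brain. For the miR-125 family no name passed the test. With limma on log2(CPM + 1), 0 of the 5 names were called at an adjusted p under 0.05, and 0 would have been called at that threshold without adjustment. edgeR and DESeq2 on recovered reads also called 0 of the 5, and of all 463 miRNAs they called 4 and 9. Over all 463 miRNAs tested, limma called 6 (1.3%), each with less in ko, and 34 passed without adjustment (7.34%). The genotypes' values did not overlap for 16 of the 463 (3.46%), none of them a miR-125 name.

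On the log2 scale, ko against het, miR-125b-5p differed by -0.30 (SE 0.34, 95% interval -1.05 to 0.44) and miR-125a-5p by -0.15 (SE 0.32, interval -0.84 to 0.54). miR-125b-1-3p differed by -0.08 (SE 0.29, interval -0.72 to 0.56), miR-125b-2-3p by -0.09 (SE 0.23, interval -0.58 to 0.40) and miR-125a-3p by 0.26 (SE 0.39, interval -0.58 to 1.09). The limma adjusted p was 0.975 for each. Only the intervals of miR-125b-5p, downward, and miR-125a-3p, upward, reached beyond 1 log2 unit. The median over the 5 names was -0.09, as it was over all 463 miRNAs. Centring each library on its median moved that median of all miRNAs to 0.13, and the signs of miR-125a-5p, miR-125b-1-3p and miR-125b-2-3p then turned. That of miR-125b-5p turned with edgeR (0.0067), with DESeq2 (0.016) and without ko replicate 3 (0.0052), and that of miR-125a-3p without het replicate 1 (-0.060), so no direction can be given for any of the 5 names.

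The 15 names listed as cluster and seed neighbours were read in the same fit. They are let-7 and miR-99/100 guides encoded in the same clusters, with miR-351 and miR-670, and 11 of them passed the filter of 10 CPM. Mature let-7a-5p and let-7c-5p are also made from genes outside these clusters, so their levels cannot be assigned to them. None was called, 7 were above and 4 below 0, and their median log2 fold change was 0.15 beside -0.09 for all miRNAs tested. miR-99a-5p, from the Mir125b-2 cluster, had the only unadjusted p under 0.05, and differed by -1.12 on the log2 scale (SE 0.48, adjusted p = 0.593 with limma). It was at 11543, 7824, 13115 and 11608 CPM in het replicates 1 to 4 and 1524, 6933, 5214 and 11283 CPM in ko replicates 1 to 4, and its genotypes overlapped through ko replicate 4. let-7c-5p, which that cluster also encodes, differed by 0.16 (SE 0.19), and miR-125b-2-3p, as given above, by -0.09.

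**Figure D5:**
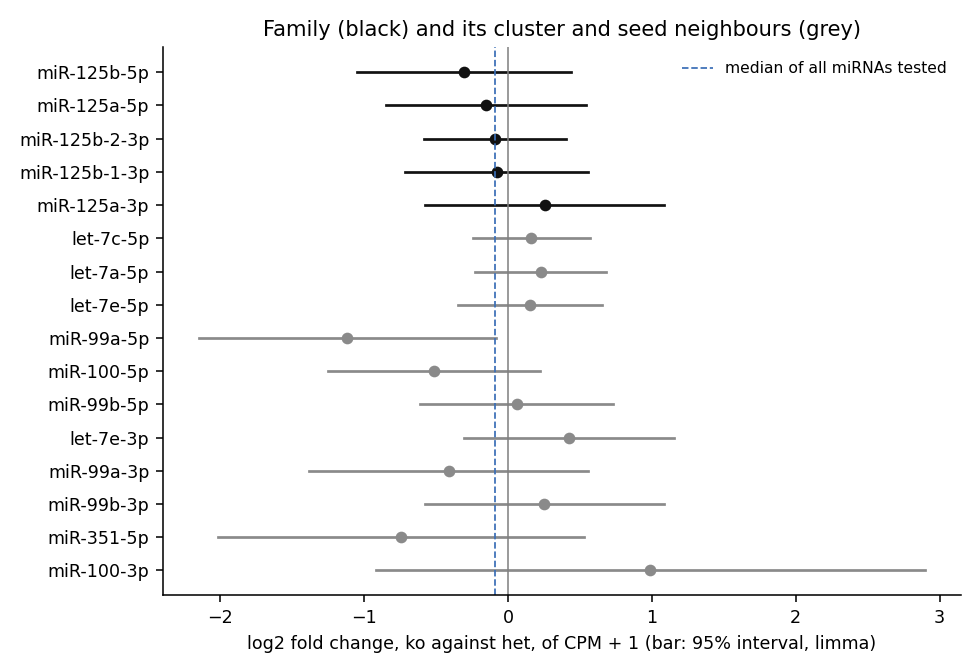
log2 fold change of CPM + 1, ko against het, for the 5 miR-125 names (black) and the 11 tested cluster and seed neighbours (grey), with 95% intervals from limma. The intervals of all 5 family names include 0, and the dashed line marks the median of all 463 miRNAs tested, -0.09.

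The same contrast was made for single reads. Of the 536 family reads, 58 passed a mean of 10 CPM, and none was called (16 of all 3299 reads tested, 0.485%). Their log2 fold changes ran from -0.93 to 1.54 with a median of -0.22, beside -0.02 for all reads. Single libraries moved that median, which was -0.13 without het replicate 3, -0.06 without ko replicate 2, -0.06 without ko replicate 3 (-0.05 for all reads) and -0.41 without ko replicate 4, and it was -0.09 with edgeR. Many of these reads share a name and rise and fall with it. Only the 21-nt read of miR-125b-5p shown above had an unadjusted p under 0.05 (175 of 3299, 5.3%), and it was also the only family read whose genotypes did not overlap (99 of 3299, 3%). It was at 4730, 6972, 4817 and 6139 CPM in het replicates 1 to 4 and 3765, 3448, 3038 and 3907 CPM in ko replicates 1 to 4, which differs by -0.67 on the log2 scale (SE 0.24, adjusted p = 0.692 with limma). As a share of miR-125b-5p, given above, the same length overlapped between genotypes.

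The next smallest p among reads below 0 belonged to the 23-nt form of miR-125b-2-3p that ends in an untemplated U, at -0.82 (SE 0.49, limma adjusted p = 0.973). Above 0 they belonged to a 22-nt read of miR-125a-5p that starts at +1, at 1.26 (SE 0.83), and a 23-nt read of miR-125b-5p with a tail of C, at 1.54 (SE 1.07), both with an adjusted p of 0.973. All of these reads averaged under 20 CPM.
miR-125b-2-3p, 23 nt: aCAAGTCAggttcttgggacctt
miR-125a-5p, start +1, 22 nt: cCCTGAGAccctttaacctgtg
miR-125b-5p, 23 nt: tCCCTGAGaccctaacttgtgac

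The family's composition was compared between genotypes by 9 per-library measures, each with an exact two-sided permutation test over the 70 splits of 4 against 4, which cannot give a p below 0.0286. No measure passed. The family summed to 32956 ± 3596 CPM among het libraries and to 30217 ± 13521 CPM among ko libraries (exact permutation p = 0.771, adjusted 0.964). The log2 ratio of miR-125b-5p to miR-125a-5p was 1.39 ± 0.46 and 1.24 ± 0.83 (exact permutation p = 0.800, adjusted 0.964). In both, the ko libraries were the more scattered.

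For strand choice, the log2 ratio of the 3p arm to the 5p arm of miR-125a was -6.93 ± 0.60 in het and -6.52 ± 0.54 in ko (exact permutation p = 0.343, adjusted 0.964). For miR-125b it was -5.45 ± 0.37 and -5.23 ± 0.998 (exact permutation p = 0.714, adjusted 0.964), and for miR-125b-1-3p to miR-125b-2-3p -1.57 ± 0.20 and -1.56 ± 0.38 (exact permutation p = 1, adjusted 1). Differences of the mean were thus at most 0.41 on the log2 scale. The share with another 6mer seed was 2.51% ± 0.341 and 2.53% ± 0.227 for miR-125a-5p and 4.20% ± 0.333 and 4.26% ± 0.210 for miR-125b-5p (exact permutation p = 0.857 and 0.771, both adjusted 0.964). The mean length was 22.6 ± 0.0691 nt and 22.6 ± 0.0440 nt for miR-125a-5p and 21.5 ± 0.17 nt and 21.5 ± 0.0646 nt for miR-125b-5p (exact permutation p = 0.343 and 0.543, both adjusted 0.964). A single measure at the floor of 0.0286 would have had an adjusted p of 0.257 over the 9 measures, and 6 of them at the floor would have been needed to pass, so this design could not have called 1 measure alone.

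The miRNAs whose level followed each 5p arm most closely over the 8 libraries were found among 277 with a mean of at least 100 CPM, by the SD of the log2 ratio, which is 0 for a constant ratio. For miR-125b-5p they were miR-100-5p (0.26), miR-341-3p (0.31) and miR-181d-5p (0.35), where the median of all was 0.77. miR-100-5p is cut from the Mir125b-1 cluster. miR-125a-5p came at place 56 (0.63), and the family's own miR-125b-2-3p and miR-125b-1-3p at places 83 and 156 (0.69 and 0.79). For miR-125a-5p the closest were miR-484 (0.22), miR-326-3p (0.31) and miR-1298-5p (0.35), with a median of 0.68 and miR-125b-5p at place 109. The libraries share the scaling to a fixed total, and these values are a description with no test.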

How the data were processed

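The deposited values are CPM per read sequence, made by the authors with their SPOROS pipeline. It trimmed reads, removed rare and artificial sequences, named the rest by BLAST against mouse small RNA lists and scaled each library to 1000000 reads. The submitters' processing notes name Trim Galore, and versions and a genome build are not given in the sources used here. The viability score beside each read is also deposited, a mean over 3 cell lines. All values (100%) were whole multiples of 1 read, within 5% of a read, which gave the depth, 509839 to 19878054 reads. Columns summed to 98.4% to 99.8% of that total. Scaling makes each level relative to the rest of its library.

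Groups and replicate numbers came from sample titles. Read CPM were summed per name. limma 3.58.1 (R 4.3.3, trend and robust) was run on log2(CPM + 1) for 463 miRNAs and 3299 reads with a mean of at least 10 CPM, with Benjamini-Hochberg adjustment, and tested on simulated data. edgeR 4.0.16 and DESeq2 1.42.0 served as alternatives on recovered reads. Exact permutation and sign-flip tests used Python 3.11.15, numpy 2.4.6 and pandas 2.3.3, Wilson intervals scipy 1.17.1 and figures matplotlib 3.10.9. Intervals and floors cover counting error only, as reads had no molecular identifiers. Starts and tails came from the longest exact match to GENCODE M21 hairpins. Another 288 sequences had no mature name, 1.66% to 1.96% of the family's CPM, and were added only in an alternative. The table files 109 of them under the overlapping Spaca6 transcript and the rest under these hairpins. The members and lists were chosen with earlier results of these data known. The reads named are the 3 most abundant of each 5p arm, the most abundant of each 3p arm, any called, and the 2 smallest p in each direction. Shifted and tailed reads were added after their values were seen. Other alternatives were a pseudocount of 0.1 or 10 CPM, a filter at 1 or 100 CPM or none, centring on library medians, the replicate block, and leaving out each library or both libraries over 5000000 reads.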

Additional observations from a re-analysis of the deposited data

Results flagged for a closer look

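In 2 of 54 groups of 4 libraries tested for a single library far from the rest, 1 library stood out, where chance flags about 1 in 20 groups. Reads of the annotated length and start made up 27.4% of miR-125a-5p in het replicate 1 (95% Wilson interval 25.98% to 28.8%, 3781 reads), and the nearest other het library had 18.6%. That library was the shallowest of the 8. For miR-125a-3p the same share was 0% in ko replicate 4, 0 of 94 reads, which allows a share of up to 3.19%, while the nearest other ko library was at 12.8%.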

How the results depend on the processing

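No miR-125 name or read was called under any alternative that was run, and the within-library comparisons of paralogs and arms kept their sign under all of theirs. Without 1 library at a time they ranged from 1.22 to 1.5 (log2 miR-125b-5p to miR-125a-5p), -1.63 to -1.5 (log2 miR-125b-1-3p to miR-125b-2-3p), 1.27 to 1.46 (log2 3p to 5p, miR-125b minus miR-125a), 1.65 to 1.79 points (other seed) and 35.6 to 39.3 points (annotated length and start), with an exact sign-flip p of 0.0156, the smallest 7 libraries allow.

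No genotype difference passed its test. log2 miR-125a-3p to miR-125a-5p kept its sign throughout (0.184 to 0.669 without 1 library at a time), as did the length of miR-125a-5p (-0.071 to -0.016 nt), and the other 7 measures did not. Without 1 library at a time, ko minus het ranged from -8616 to 1014 CPM for the family, -0.34 to 0.26 for log2 miR-125b-5p to miR-125a-5p, -0.14 to 0.57 for log2 miR-125b 3p arms to miR-125b-5p, -0.14 to 0.15 for log2 miR-125b-1-3p to miR-125b-2-3p, -0.084 to 0.13 points and -0.052 to 0.19 points for the other-seed share of miR-125a-5p and miR-125b-5p, and -0.0030 to 0.13 nt for the length of miR-125b-5p. Over the same omissions the log2 fold change ranged from -0.060 to 0.502 for miR-125a-3p, -0.38 to 0.17 for miR-125a-5p, -0.24 to 0.083 for miR-125b-1-3p and -0.595 to 0.0052 for miR-125b-5p, and stayed negative for miR-125b-2-3p (-0.171 to -0.022). Without both libraries over 5000000 reads the family differed by 1119 CPM, the other-seed share of miR-125b-5p by -0.0068 points, miR-125a-5p by 0.34, miR-125b-1-3p by 0.14, log2 miR-125b-5p to miR-125a-5p by -0.67 and log2 miR-125b-1-3p to miR-125b-2-3p by 0.31, and of these the seed share alone lay within its range above. Centring on library medians gave 0.070 for miR-125a-5p, 0.14 for miR-125b-1-3p and 0.13 for miR-125b-2-3p. edgeR gave 0.096, 0.071 and 0.047 for these names and 0.0067 for miR-125b-5p, and DESeq2 0.11, 0.087, 0.059 and 0.016. The median of all miRNAs was 0.13, 0.06 and 0.07 in these 3 fits. Adding the sequences without a mature name, chosen after seeing the data, changed no call.

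Replicate numbers occur in both genotypes but belong to different mice, and correlations of same-numbered libraries (0.04, 0.29, -0.18 and 0.25) do not pair them. With the replicate block, 0 miR-125 names and 0 reads were called. Over all features the block called 10 miRNAs against 6 and 26 reads against 16. Reads called were 35 with means of at least 1 CPM, 5 with at least 100 CPM, 9 without both deep libraries and 9 to 21 without 1 library, the fewest without het replicate 4. miR-125a-3p, which rests on 19 reads in the shallowest library, is the member most limited by depth.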
